A study of Mus musculus with 4 samples.

Results

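Cytosolic ribosomal proteins are the protein components of the ribosome that translates nuclear-encoded messenger RNA. The genes described here were taken by symbol: Rpl or Rps followed by a number, with or without one of the suffixes a, x, l, l1 or al, and also Rplp0, Rplp1, Rplp2 and Rpsa. Pseudogene symbols were left out, and the expression value of the rows of a symbol was summed. That value is FPKM, the number of fragments mapped to a transcript, scaled to its length in kilobases and to 1000000 mapped fragments in the library. The rule gave 85 members, out of the 26994 gene symbols in the tables, 53 of the large and 32 of the small ribosomal subunit, on 101 transcript rows. Of these, 80 passed the filter of a mean of at least 1 FPKM over all libraries and entered the comparison across 11716 genes. Rps4l and Rpl32l match the rule, although the annotation lists them as pseudogenes, and Rps3a1 and Fau, which also encode ribosomal proteins, are among the genes outside it.

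The data are messenger RNA sequencing of CJ9 mouse embryonic stem cells, a line of strain 129S4/SvJae, differentiated by withdrawal of the cytokine LIF, which otherwise keeps mouse embryonic stem cells from differentiating. The series deals with Evx1 and its antisense transcript in such cells; the 4 libraries used here are wild type and received Cas9 only, and cells carrying the deletion were not analysed here. By their titles 2 libraries were collected at day 4 and 2 at day 6. The culture text gives 2 and 6 days without LIF for day 4 replicates 1 and 2, and 4 and 6 days for day 6 replicates 1 and 2, so it departs from the title in 3 of the 4 libraries, and day 4 replicate 2 carries the same 6 days as day 6 replicate 2. The labels do not say that replicates came from separate cultures, so a p-value here reflects the spread among these libraries alone, which may be technical.

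Depth, as inferred from how wide the deposited FPKM intervals are, was about 4140000 to 4200000 fragments at day 4 and 6530000 to 7400000 at day 6. Day 4 replicate 2 stood apart: it had 9449 genes at 1 FPKM or more against 11206 to 11840 in the others. The label of embryonic stem cells leaving pluripotency was checked against marker genes. For Pou5f1, Sox2 and Nanog both day 6 values lay under both day 4 values, as they did for 4 of 5 genes of primitive streak and early mesoderm, and Pou5f1 stood at 368 and 376 FPKM at day 4 and 54.9 and 42.0 at day 6. Of the 7 pluripotency genes listed 3 others, Esrrb, Klf4 and Zfp42, lay higher in both day 6 libraries, so the list did not move 1 way; Zfp42 had 20.6 and 6.15 FPKM at day 4 and 21.4 and 24.9 at day 6. Summed FPKM of 5 fibroblast-type genes was 9.84 and 8.38 at day 4 and 140 and 270 at day 6. Of these 5, 4 were higher in both day 6 libraries, while Thy1 had 1.98 and 1.38 FPKM and then 3.25 and 1.46. The sum of 4 blood genes was 0 and 0 and then 179 and 712. Ptprc, the defining gene of white blood cells, was listed at 0 in all 4 libraries. These marker levels moved with the day, though not for every gene listed. The part of cell mixture in the ribosomal protein values was not tested. In bulk RNA fewer cells of a type and less RNA per cell cannot be told apart.

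A ribosome holds one copy of nearly every ribosomal protein, with the acidic stalk proteins present in more, so cells make these proteins in matched amounts. Their messenger RNAs are short, abundant and begin with a tract of pyrimidines, the TOP motif, through which the kinase mTOR controls their translation. Embryonic stem cells are known for a high rate of ribosome production, in which Myc proteins take part, and for a rise of translation as they differentiate. Outside the ribosome, several members bind Mdm2, the ubiquitin ligase of p53, and many are mutated in Diamond-Blackfan anaemia, an inherited failure of red blood cell production.

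The largest contrast among the members lay between the 2 libraries titled day 4, and it followed base composition, so the first 90 coding bases are shown for the members at its ends, with every G and C in capitals. The first 4 were far lower in day 4 replicate 2 than in replicate 1, and the last 4 far higher. The sequences are the longest annotated coding sequence of each gene in GENCODE M21 (build GRCm38, the same as mm10), on the strand of the gene, starting at the initiation codon. Rps4l also lay at the upper end and has no annotated coding sequence.
Rpl39: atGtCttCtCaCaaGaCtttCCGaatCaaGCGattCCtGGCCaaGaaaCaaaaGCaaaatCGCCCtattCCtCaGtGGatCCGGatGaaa
Rpl9: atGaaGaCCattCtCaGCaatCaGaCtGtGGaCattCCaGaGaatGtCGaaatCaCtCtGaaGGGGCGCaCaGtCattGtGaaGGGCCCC
Rpl36a: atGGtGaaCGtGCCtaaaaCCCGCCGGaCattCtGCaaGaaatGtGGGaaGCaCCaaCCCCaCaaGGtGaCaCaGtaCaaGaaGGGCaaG
Rpl22: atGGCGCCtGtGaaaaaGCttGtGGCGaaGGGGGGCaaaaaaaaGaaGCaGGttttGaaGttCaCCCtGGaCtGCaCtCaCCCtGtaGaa
Rps20: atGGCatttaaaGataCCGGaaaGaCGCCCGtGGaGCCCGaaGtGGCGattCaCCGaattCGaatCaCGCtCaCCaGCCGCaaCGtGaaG
Rps28: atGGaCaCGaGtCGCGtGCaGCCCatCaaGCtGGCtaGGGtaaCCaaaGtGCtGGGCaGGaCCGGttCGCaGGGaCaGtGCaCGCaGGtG
Rpl13: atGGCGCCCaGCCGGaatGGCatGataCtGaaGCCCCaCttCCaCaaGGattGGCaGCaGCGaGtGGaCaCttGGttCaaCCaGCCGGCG
Rpl36: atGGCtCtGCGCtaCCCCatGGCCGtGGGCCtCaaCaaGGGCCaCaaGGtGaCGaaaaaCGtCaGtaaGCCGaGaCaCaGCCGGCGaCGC

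These genes lie on different chromosomes or far apart. Rpl39 is at chrX:37082520-37085184 and Rpl36a at chrX:134585654-134588062, Rpl9 at chr5:65388364-65391431, and Rpl22 at chr4:152325726-152334082 and Rps20 at chr4:3834473-3835600. Rps28 is at chr17:33823037-33824498, Rpl36 at chr17:56613395-56614246 and Rpl13 at chr8:123102350-123105242. G and C made up 45.1% of the Rpl39 coding sequence and 48.4 to 49.0% of those of Rpl22, Rpl36a and Rpl9, against 57.0, 58.5 and 61.6% for Rps28, Rpl13 and Rpl36. Rps20 is the exception, with a coding GC content of 49.0%.

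The ribosomal protein genes held a large and similar part of the RNA on both days, while their individual levels differed most in day 4 replicate 2. Their share of the summed FPKM was 15.4 and 21.1% in day 4 replicates 1 and 2 and 18.1 and 19.3% in day 6 replicates 1 and 2. The day 4 mean was 18.3% ± 4.00 (SD, n = 2) and the day 6 mean 18.7% ± 0.857 (SD, n = 2), so the difference was smaller than the spread between the day 4 libraries. The day 6 shares lay between those of the day 4 libraries. Over the 80 members tested the median level was 748, 572, 1054 and 1070 FPKM in the same order, against a median of 7.13, 4.96, 10.01 and 9.54 FPKM over all genes tested.

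In 3 of the 4 libraries most members stood within a narrow range. The upper quartile of the members tested exceeded the lower quartile 2.81-fold in day 4 replicate 1, 2.44-fold in day 6 replicate 1 and 2.39-fold in day 6 replicate 2. In day 4 replicate 2 the same ratio was 84.2. There 27 members tested were below 50 FPKM, against 3 in each other library, and 33 were at 1000 FPKM or more, against 25 in day 4 replicate 1 and 42 and 41 at day 6. Members below 50 FPKM and members above 1000 FPKM thus stood side by side in 1 library. The SD of log2(FPKM + 1) over the members, a scale to which 1 FPKM was added so that values of 0 could be used, was 1.31, 3.51, 1.41 and 1.42.

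**Figure D1:**
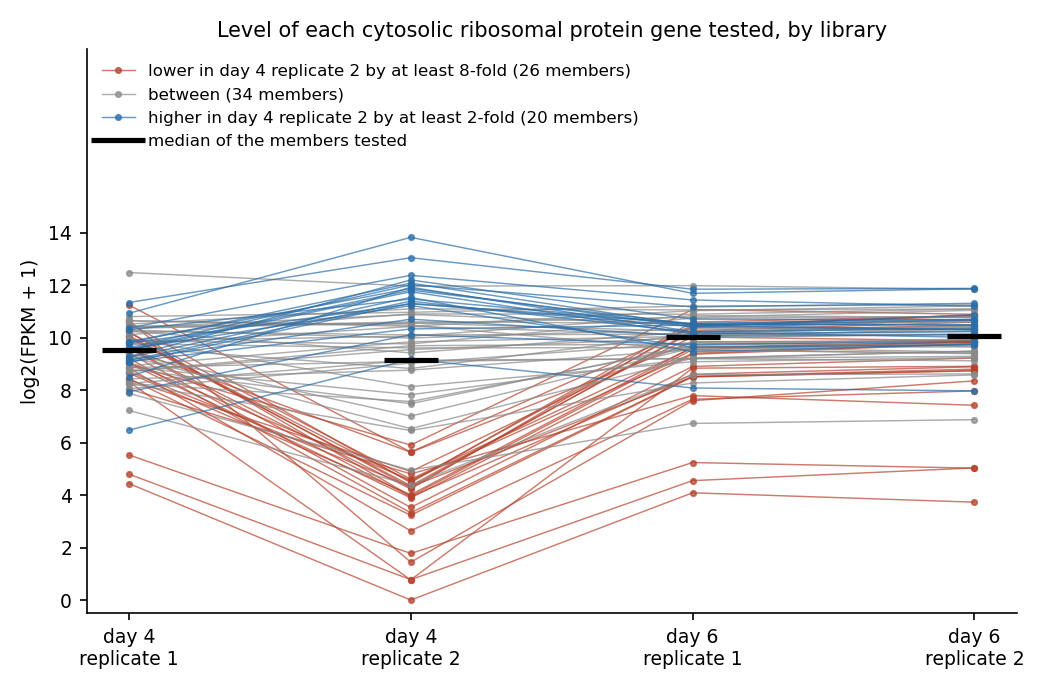
The level of each of the 80 members tested is plotted as log2(FPKM + 1) in the 4 libraries, with a line joining the values of 1 gene and a black bar at the median. The 26 members in red were at least 8-fold lower in day 4 replicate 2 than in replicate 1, the 20 in blue were at least 2-fold higher there, and the red and blue lines mingle in day 4 replicate 1 and in the 2 day 6 libraries.

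The members of highest mean level were Rps28, Rps26, Rpl41 and Rplp1. Rps28, a small protein at the messenger RNA exit of the small subunit, stood at 1955 and 14549 FPKM in day 4 replicates 1 and 2 and 3313 and 3738 at day 6. Rps26, which lies near the same exit, had 2599 and 8495 FPKM at day 4 and 3693 and 3776 at day 6. Rpl41, the smallest ribosomal protein, had 5741 and 4009 FPKM at day 4 and 4060 and 3686 at day 6. The day 6 values of Rps28 and Rps26 lay between their day 4 values, and those of Rpl41 were spread around its day 4 replicate 2 value. FPKM of such short transcripts is uncertain. In the 4 libraries 67, 47, 67 and 67 of the 101 member rows had an FPKM above the upper bound deposited for the same row. Over all rows with a positive FPKM the share was 1.73 to 2.70%.

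Of the members, 5 were not tested because their mean was below 1 FPKM. Rpl3l, a striated muscle form of Rpl3, and Rpl32l were listed at 0 in all 4 libraries. Rpl10l, a testis form of Rpl10, had 1.81 and 1.15 FPKM at day 4 and 0.116 and 0 at day 6. Rpl39l, a testis form of Rpl39, had 0.603 and 2.47 FPKM at day 4 and 0.466 and 0.178 at day 6. Rps27 stood at 0.582 and 0.601 FPKM at day 4 and 0.201 and 0.208 at day 6, but its reads may sit on another row. A row of nearly the same position and length (chr3:90212667-90213647), whose ID is now named Rps27rt and which was singled out after its values were seen, had 311 and 2.67 FPKM at day 4 and 1640 and 1410 at day 6. The summed level of both rows was 311, 3.27, 1640 and 1410 FPKM, which is in the range of the other members outside day 4 replicate 2.

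Between day 4 and day 6 no member passed the test. With limma and Benjamini-Hochberg adjustment over all genes 0 of the 80 members were called, against 0.0% of the 11716 genes tested, and the smallest adjusted p of a member was 0.30. At an unadjusted p under 0.05 there were 2 members, Rpl15 among them, and 1793 genes, 15.3% of those tested. Both day 6 values were above both day 4 values for 32 members, 40.0%, against 41.6% of all genes tested, and below both for 1 member, 1.25%, against 11.5%. The share that was higher is close to the background, and the share that was lower is under it. The median log2 difference of day 6 minus day 4 was 0.79 over the members and 0.51 over all genes. Centring each library on the median of the genes tested left 0.16 for the members and -0.12 for all genes. Then 10 of the 80 members were higher and 10 lower without overlap, against 2373 and 3098 of the 11716 genes.

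The members with the largest fitted differences were low in day 4 replicate 2. Rpl9 had the largest fitted difference, 4.33 (SE 2.59, limma adjusted p = 0.464), on 319 and 0.705 FPKM at day 4 and 457 and 481 at day 6. Among the next largest log2 differences were those of Rps25 (3.41), Rpl26 (3.38) and Rpl37a (3.31), each with day 4 replicate 2 below 30 FPKM. For Rpl9 and these 3 the day 6 level lay 1.47- to 2.96-fold above day 4 replicate 1 and far more above replicate 2. Rpl15, a large-subunit protein mutated in Diamond-Blackfan anaemia, had 304 and 189 FPKM at day 4 and 797 and 701 at day 6, a log2 difference of 1.64 (SE 0.53, limma adjusted p = 0.30). Both day 6 libraries were above both day 4 libraries for Rpl15, and its day 4 libraries lay closer to each other than to day 6.

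Rps14, a protein of the platform of the small subunit whose loss marks the human 5q- syndrome, was the only member tested that was lower in both day 6 libraries. It stood at 1599 and 1432 FPKM at day 4 and 733 and 683 at day 6, a log2 difference of -1.10 (SE 0.51, limma adjusted p = 0.387). The day 4 mean was 1515 ± 118 and the day 6 mean 708 ± 35.3 FPKM (SD, n = 2 each), so replicates agreed within 1.12-fold at day 4. The next lowest fitted differences, of Rpl29 (-0.78), Rpl6 (-0.72), Rps28 (-0.60), Rpsa (-0.45) and Rpl19 (-0.39), came from high values in day 4 replicate 2 alone. Rpl29, a heparin-binding large-subunit protein, had 607 and 2977 FPKM at day 4 and 708 and 861 at day 6, and Rpl6 had 759 and 2399 and then 797 and 845. In each of these 5 the day 6 values were above day 4 replicate 1 and below day 4 replicate 2.

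Because the day 4 libraries disagreed, each was also set against day 6 alone. Against day 4 replicate 1, both day 6 libraries were higher for 58 members (72.5%, against 59.9% of all genes) and lower for 17 (21.2%, against 32.0%), with a median log2 difference of 0.48 for members and 0.37 for all genes. Against day 4 replicate 2 they were higher for 51 (63.7%, against 65.0%) and lower for 25 (31.2%, against 28.7%), with medians of 0.71 and 0.66. Without day 4 replicate 2, limma called 37 members, 31 higher (38.8%, against 36.2% of all genes) and 6 lower (7.50%, against 15.7%). Without day 4 replicate 1 it called 61, of which 42 were higher (52.5%, against 49.9%) and 19 lower (23.8%, against 17.0%). Those fits rest on 1 day 4 library that is assumed to vary like the day 6 pair, so their calls describe the distance from that library.

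**Figure D2:**
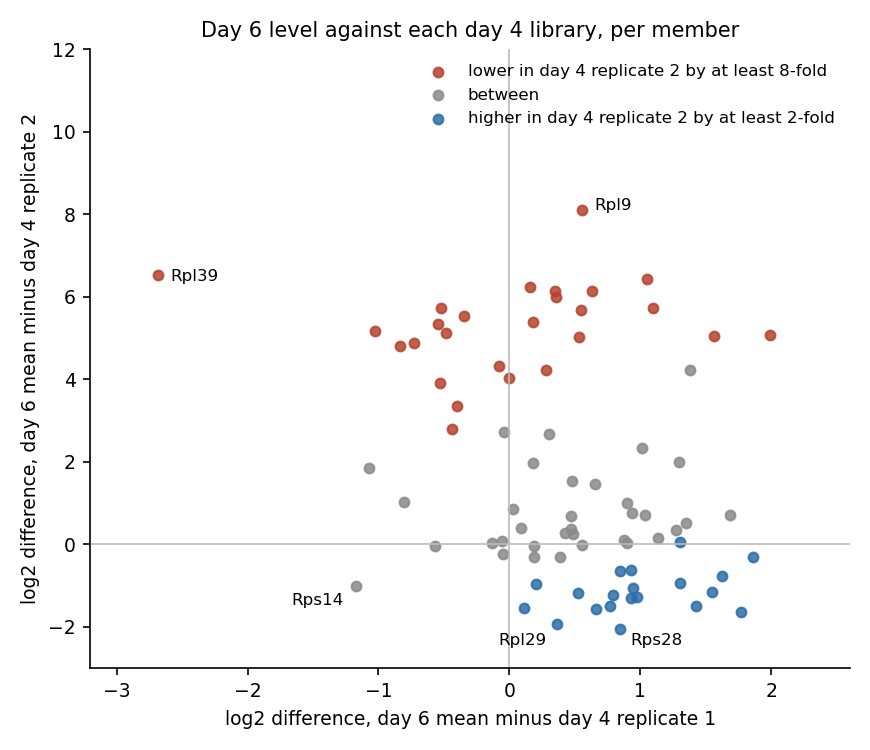
Each point is 1 of the 80 members tested, with the log2 difference of the day 6 mean from day 4 replicate 1 on the horizontal axis and from day 4 replicate 2 on the vertical axis, both on the log2(FPKM + 1) scale. Differences from replicate 1 run from -2.69 (Rpl39) to 1.99, while those from replicate 2 place the red members high, the blue ones low and the grey ones between, and Rps14 is below 0 on both axes.

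Without day 4 replicate 2 the 6 members called lower were Rpl22, Rpl30, Rpl34, Rpl39, Rps14 and Rps3. Rps3, which carries a DNA repair activity beside its place at the messenger RNA entry, had 999 and 281 FPKM at day 4 and 542 and 605 at day 6, so its day 6 values lay between the day 4 values. Small-subunit members made up 16 of the 31 called higher in that fit, out of 31 tested, and large-subunit members 15, out of 49 tested, where 36.2% of all genes were called higher. The median log2 difference from day 4 replicate 1 was 0.67 for the small and 0.36 for the large subunit, while with both day 4 libraries the medians were 0.77 and 0.81. Whether the subunits differ was not tested.

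The stalk proteins followed 1 course across the libraries. Rplp0, the base of the stalk that draws elongation factors to the ribosome, had 534 and 2546 FPKM at day 4 and 1375 and 1261 at day 6. Rplp1, which pairs with Rplp2 on that base, had 1329 and 5331 FPKM at day 4 and 2779 and 2362 at day 6. Rplp2 had 924 and 3768 FPKM at day 4 and 1363 and 1884 at day 6. All were 4.01- to 4.77-fold higher in day 4 replicate 2 than in replicate 1, with day 6 between them, and their log2 differences of day 6 minus day 4 were 0.18, -0.06 and -0.22 (limma adjusted p = 0.936, 0.980 and 0.914). Rpsa, a small-subunit protein also known as a laminin receptor, followed the same course, with 736 and 3455 FPKM at day 4 and 1133 and 1204 at day 6. The stalk genes had a median coding GC content of 56.8%. From 55% GC upward 13 of 22 members were at least 2-fold higher in day 4 replicate 2, against 39.5% of other genes. Whether the stalk stands apart from members of like GC content was not tested.

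Rps6, the substrate of the S6 kinases downstream of mTOR, and Rps27a, which is made as a fusion with ubiquitin, took the opposite course. Rps6 stood at 1182 and 23.5 FPKM at day 4 and 784 and 913 at day 6, a log2 difference of 2.32 (SE 1.95, limma adjusted p = 0.586). Rps27a stood at 418 and 19.0 FPKM at day 4 and 363 and 431 at day 6, a log2 difference of 2.11 (SE 1.55, limma adjusted p = 0.532). For both the SE was near the size of the difference, and day 6 lay within 1.39-fold of day 4 replicate 1. Fau, which is made as a fusion with a ubiquitin-like protein and is no member by the rule, was higher rather than lower in day 4 replicate 2, with 834 and 1916 FPKM at day 4 and 1017 and 1113 at day 6.

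Of 6 members listed here as binding Mdm2, a list that need not hold every such member, 5 were at least 8-fold lower in day 4 replicate 2. Of all 80 members tested 26 were. The share over all genes was 6.81%, and 13.5% among genes with at least 7 FPKM in replicate 1. The 6 had a median coding GC content of 49.4%, and below 50% GC 18 of 21 members were at least 8-fold lower. Whether Mdm2 binding bears on the count was not tested. Rpl5, which forms a particle with 5S ribosomal RNA and Rpl11 that holds Mdm2, had 593 and 9.05 FPKM at day 4 and 368 and 446 at day 6. Rpl11 had 1217 and 686 FPKM at day 4 and 1201 and 1287 at day 6. The partners thus differed from each other by far more in day 4 replicate 2 than elsewhere, Rpl5 being 65.5-fold and Rpl11 1.77-fold higher in replicate 1 than in replicate 2. Summed over Rpl5, Rpl11, Rpl23, Rpl26, Rps7 and Rps27l the level was 4311, 769, 4314 and 5239 FPKM, so it was low in day 4 replicate 2 alone. Within the sum the members differed: relative to day 4 replicate 1, Rpl5 lay lower in both day 6 libraries and Rpl26 higher.

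Of 17 members named for Diamond-Blackfan anaemia 16 were tested, with 0 called, 10 higher at day 6 without overlap and 0 lower, against 41.6 and 11.5% of all genes tested. The median log2 difference was 1.08, beside 0.79 for all members. Rps19, the gene most often mutated in that disease, had 421 and 748 FPKM at day 4 and 1026 and 1126 at day 6, a log2 difference of 0.94 (SE 0.57, limma adjusted p = 0.470). Both day 6 values were above both day 4 values, and the limma adjusted p was 0.00569 without day 4 replicate 2 and 0.0707 without day 4 replicate 1. Rpl38, which is needed for the translation of Hox messenger RNAs in the mouse embryo, had 444 and 178 FPKM at day 4 and 832 and 968 at day 6, a log2 difference of 1.67 (SE 0.66, limma adjusted p = 0.341). Its day 6 level lay 2.03-fold above day 4 replicate 1, and the limma adjusted p was 0.0142 without day 4 replicate 2 and 0.000719 without replicate 1. Rps2, at the entry of the messenger RNA channel, was among the steadiest, with 1471 and 2197 FPKM at day 4 and 2139 and 2187 at day 6. Rpl4, which lines the exit tunnel of the large subunit, had 2432 and 49.0 FPKM at day 4 and 1331 and 1619 at day 6.

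The libraries titled day 4 disagreed on most members, and in opposite directions. Relative to replicate 1, replicate 2 was at least 8-fold lower for 26 of the 80 members tested (32.5%, against 6.81% of all genes), 2-fold to 8-fold lower for 8 (against 26.1%), within 2-fold for 26 (32.5%, against 47.1%) and at least 2-fold higher for 20 (against 20.0%), as differences of log2(FPKM + 1). On that scale a gene needs at least 7 FPKM in replicate 1 to be 8-fold lower, which 80 members but only 5906 of the 11716 genes had, and among those genes 13.5% were 8-fold lower. Of the 32 members higher at day 6 without overlap, 13 were among the 26 at least 8-fold lower in replicate 2, 14 among the 26 within 2-fold and 0 among the 20 higher there, so this count depends on how the day 4 libraries differ. The median absolute log2 difference was 2.24 for members and 1.07 for all genes, while the signed medians were -0.19 and -0.26. Between the day 6 libraries all 80 members agreed within 2-fold, as did 98.2% of all genes, and the median absolute log2 difference was 0.18 for members and 0.19 for all genes. Across the 80 members Pearson's r of log2 levels was 0.99 between the day 6 libraries, 0.47 between the day 4 libraries, 0.81 and 0.84 between day 4 replicate 1 and day 6, and 0.70 and 0.66 between day 4 replicate 2 and day 6. Genes are not independent replicates, and these correlations describe the libraries.

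At the lower end, Rpl39, a small protein that lines the exit tunnel, stood at 1623 FPKM in day 4 replicate 1 and 1.72 in replicate 2, and at 193 and 327 at day 6. Rpl36a had 1189 and 14.6 FPKM at day 4 and 749 and 911 at day 6, and Rpl22, known to bind viral and cellular RNA outside the ribosome, 459 and 5.23 and then 201 and 251. On the log2(FPKM + 1) scale the gap was -9.22 for Rpl39, -7.55 for Rpl9, -6.25 for Rpl36a and -6.21 for Rpl22. Day 6 was also below day 4 replicate 1 for Rpl39, 6.24-fold, for Rpl22, 2.03-fold, and for Rpl36a, 1.43-fold. At the upper end, Rpl36 had 366 and 3894 FPKM at day 4 and 1197 and 1313 at day 6, Rpl13 618 and 4719 and then 1675 and 1641, and Rps20 788 and 4144 and then 2314 and 2543. Rpl36, Rpl13, Rps28 and Rps4l were 10.6-, 7.64-, 7.44- and 6.57-fold higher in replicate 2 than in replicate 1, and for all of them day 6 lay in between.

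The gap between the day 4 libraries tracked the GC content of the coding sequence. Over the 79 members tested with an annotated coding sequence Spearman's correlation was 0.77 and Pearson's r 0.76, and with the GC content of the whole transcript, in all 80, Spearman's correlation was 0.54. Over 10687 other genes Spearman's correlation with coding GC was 0.66. The 26 members at least 8-fold lower had a median coding GC content of 48.9% (39.9 to 54.3), the 26 within 2-fold 54.4% (48.2 to 59.5), and the 19 of the 20 at least 2-fold higher that have a coding sequence 56.8% (49.0 to 61.6). The lower and higher groups overlapped only in the span from 49.0 to 54.3%. They came from 14 and 10 chromosomes, held 16 and 12 large-subunit genes, and had median row lengths of 704 and 725 bases. Spearman's correlation with row length was -0.10 and with the number of near-identical genes 0.07.

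**Figure D3:**
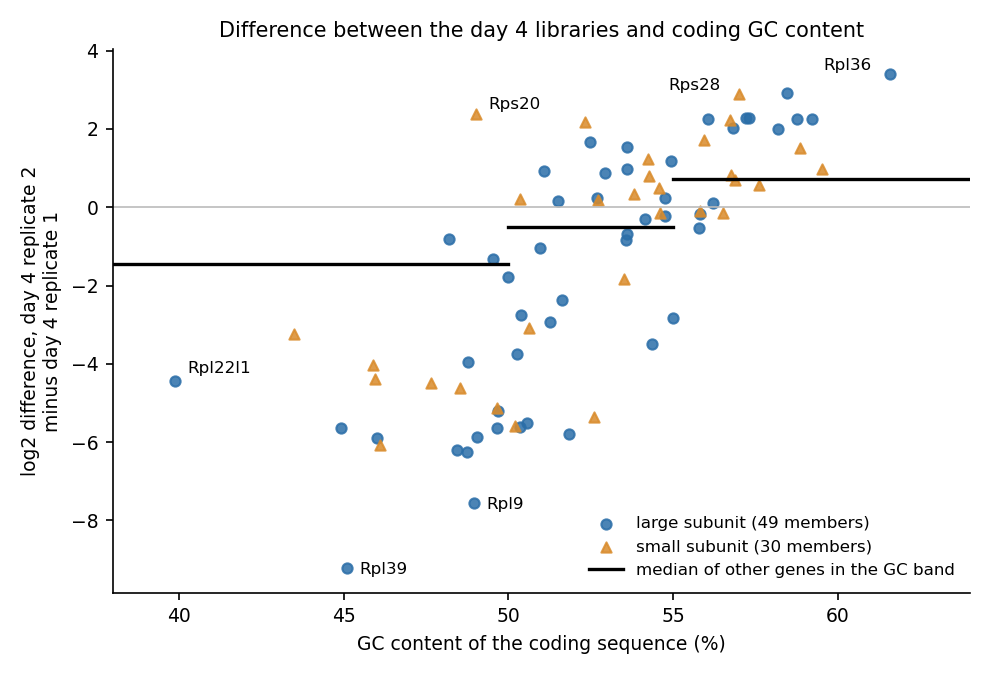
Each point is 1 of the 79 members tested that have a coding sequence, with its GC content in percent on the horizontal axis and the log2 difference of day 4 replicate 2 minus replicate 1 on the vertical axis; black lines give the median of other genes in 3 bands of GC content. The median of members below 50% GC lies under the line of other genes, at -5.13 against -1.46. The median of members at 55% or more lies above it, at 1.86 against 0.71. Single members depart from this: Rps20 is high at a low GC content, and Rpl41, at 55.8% GC, has a difference of -0.52.

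By the shares below, members departed further than other genes of like composition, as a description without a test. Below 50% coding GC 18 of 21 members were at least 8-fold lower in day 4 replicate 2 (85.7%), against 14.5% of 3297 other genes, a share to which the same limit of 7 FPKM applies. Among other genes at 100 FPKM or more in both day 6 libraries that share was 42.6% of 101, and among those with a row under 1000 bases 60.0% of 25, so abundance and short length moved with it as well. From 55% GC upward 0 of 22 members were 8-fold lower and 13 were at least 2-fold higher (59.1%). The higher share was 39.5% of 4452 other genes and 45.3% of 247 abundant ones. It was 49.3% of 71 abundant ones with a row under 1000 bases. After a smooth correction of each library for transcript GC content, 23 members were still at least 8-fold lower in day 4 replicate 2, 22 of them the same as before, and Spearman's correlation of the corrected gap with coding GC was 0.67 over 79 members. Day 6 minus day 4 replicate 1 had a Spearman's correlation of 0.44 with coding GC, and day 6 replicate 2 minus replicate 1 a Spearman's correlation of -0.42.

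In 8 pairs of a member and its paralogue, the levels were compared within each library as log2 ratios of FPKM + 1. Rpl22 exceeded Rpl22l1, which can take its place in the ribosome, by 4.40 and 2.64 at day 4 and 3.57 and 4.24 at day 6, where Rpl22l1 had 20.7 and 0 FPKM and then 16.0 and 12.3. Rpl36a exceeded Rpl36al, which arose from it by retroposition, by 1.77 and 0.73 and then 1.04 and 1.10, and Rpl36al had 347 and 8.40 FPKM and then 364 and 426. Neither ratio separated the days. Rpl7 exceeded Rpl7l1 by 4.46 and 2.58 and then 4.98 and 5.46, and Rpl10 exceeded Rpl10l by 7.44 and 8.74 and then 9.90 and 10.34. In 3 of the 8 pairs, Rpl3 with Rpl3l, Rpl10 with Rpl10l and Rpl7 with Rpl7l1, both day 6 ratios were above both day 4 ratios. In the first of these the rarer gene was listed at 0 throughout. In the second Rpl10l had 1.81 and 1.15 FPKM at day 4 and 0.116 and 0 at day 6, so the added 1 FPKM weighs on its ratio.

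Rpl39 and Rpl39l were the pair whose ratio varied most. Rpl39 exceeded Rpl39l by 9.98 in day 4 replicate 1, lay below it by a log2 ratio of -0.35 in replicate 2, and exceeded it by 7.05 and 8.12 at day 6. In replicate 2 both were near 2 FPKM. Rps4x, the X-linked copy, had 535 and 22.8 FPKM at day 4 and 678 and 883 at day 6, and Rps4l 88.2 and 579 and then 271 and 251, so their log2 ratio was 2.59 and -4.61 at day 4 and 1.32 and 1.81 at day 6. Rps27l, a p53 target, had 264 and 27.0 FPKM at day 4 and 221 and 171 at day 6, far above the Rps27 row. Because the reads of Rps27 may sit on the neighbouring row, the ratio of this pair was not read.

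**Figure D4:**
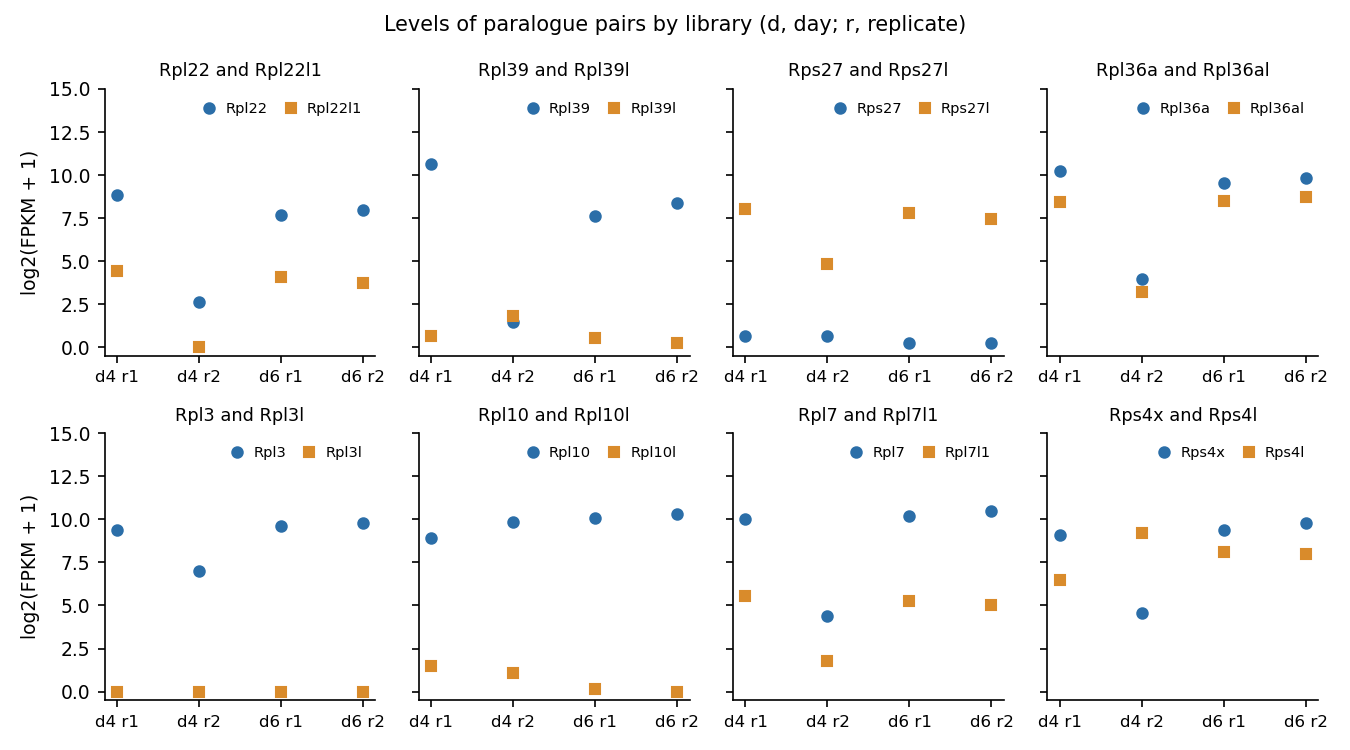
The level of both genes of 8 paralogue pairs is plotted as log2(FPKM + 1) in each library, with circles for the more widely expressed gene and squares for its paralogue. Outside day 4 replicate 2 the circles lie above the squares in every pair but Rps27 with Rps27l, and in that library Rpl39 drops to the level of Rpl39l and Rps4x drops below Rps4l.

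Several members are split over rows, and the split differed between libraries. Of the 85 members 10 have more than 1 row. Rpl19, a large-subunit protein of a bridge to the small subunit, had 804 and 2462 FPKM on the row NM_001159483 at day 4 and 25.02 and 19.1 at day 6, while the row NM_009078 had 458 and 387 and then 1440 and 1415. The first row thus held 63.7 and 86.4% of the gene at day 4 and 1.71 and 1.33% at day 6. Both rows end at the same base and start at different ones (chr11:98026710-98030493 and chr11:98026924-98030493). The row of Rpl22 with an upstream start, NM_001277113, held 375 and 0 FPKM at day 4 and 22.6 and 24.5 at day 6, 81.6% of the gene in day 4 replicate 1 and 11.2 and 9.76% at day 6. How the quantifier divided reads among rows is not given, so these splits are values of the rows and not of measured start sites.

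Reads of the members can also be shared with near-identical copies elsewhere. Of 85 members 41 have at least 1 other annotated gene whose transcript matches at least 70% of the member's at 95% identity or more. The other 44 have none. Rpl7a has 32, Rps2 26 and Rps12 22, so their levels are uncertain. Rpl34 shares its locus with a row named Rpl34-ps1, singled out after its values were seen: Rpl34 itself had 235 and 30.04 FPKM at day 4 and 105 and 117 at day 6, that row 261 and 0 and then 916 and 1105, and their sum was 495 and 30.04 and then 1022 and 1222. The member alone was lower at day 6 than in day 4 replicate 1 and the sum was higher. Rps3a1, a small-subunit gene outside the rule, had 662 and 80.9 FPKM at day 4 and 902 and 1039 at day 6.

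Genes that assemble ribosomes were lower at day 6 more often than the ribosomal protein genes, by count. None of the lists below had a gene called by limma at an adjusted p of 0.05, as for all genes. Of 44 genes of ribosome biogenesis 2 had day 6 values above, and 13 below, both day 4 values, where the shares over all genes tested were 41.6 and 11.5%. Their median log2 difference was -0.05, and -0.83 against day 4 replicate 1 alone. Rrs1, which helps assemble the large subunit, had 97.0 and 169 FPKM at day 4 and 40.2 and 37.3 at day 6 (log2 difference -1.70, SE 0.51, limma adjusted p = 0.289). Ddx21, a nucleolar RNA helicase, had 155 and 102 FPKM and then 44.2 and 38.7 (-1.58, SE 0.48, adjusted p = 0.291). Rrp9, a box C/D snoRNP protein, had 104 and 95.5 FPKM and then 46.2 and 33.2 (-1.33, SE 0.46, adjusted p = 0.311). Both day 6 values of these genes were below both day 4 values, whereas 1 of the 80 ribosomal protein genes was.

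The Myc genes, which drive ribosome production, were lower in both day 6 libraries. Myc had 48.3 and 121 FPKM at day 4 and 26.4 and 26.2 at day 6 (log2 difference -1.51, SE 0.61, limma adjusted p = 0.349), and Mycn 33.5 and 133 and then 18.7 and 21.4 (-1.70, SE 0.79, adjusted p = 0.386). With Max, their partner, 3 of 3 genes were lower without overlap, where 11.5% of all genes tested were. Their median was -1.51, or -0.85 against day 4 replicate 1. Of 14 genes of RNA polymerase I, which transcribes ribosomal RNA, 1 was higher and 2 lower, against 41.6 and 11.5% of all genes. The median of these 14 was 0.03, and -0.75 against day 4 replicate 1. Without day 4 replicate 2 limma called 0 higher and 27 lower among the 44 biogenesis genes and 0 higher and 7 lower among the 14 of RNA polymerase I, against 31 higher and 6 lower among the 80 ribosomal proteins and 36.2% higher and 15.7% lower among all genes. The difference between lists was not tested.

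Other genes with TOP messenger RNAs, mostly translation factors, also disagreed between the day 4 libraries in both directions. Of 19 tested, 5 were at least 8-fold lower and 5 at least 2-fold higher in day 4 replicate 2. The shares over all genes were 6.81 and 20.0%. At day 6 without overlap 5 were higher and 1 was lower, against 41.6 and 11.5% of all genes, with a median of 0.40. Eef1a1, which brings aminoacyl-tRNA to the ribosome, had 2278 and 52.6 FPKM at day 4 and 3658 and 4190 at day 6 (log2 difference 3.49, SE 1.90, limma adjusted p = 0.435). Of 8 genes of the mTOR pathway 2 were higher and 1 lower, at a median of 0.12. Of 75 mitochondrial ribosomal protein genes, whose products form the separate ribosome of mitochondria, 31 were higher without overlap and 5 lower, at a median of 0.50, which is near the background of 41.6 and 11.5% and the median of 0.51 over all genes. Among them Mrpl14 had 2.23 and 5.50 FPKM at day 4 and 29.6 and 37.7 at day 6 (2.91, SE 0.55, limma adjusted p = 0.267). In this list 8 were at least 8-fold lower in day 4 replicate 2, against 26 of 80 cytosolic members and 6.81% of all genes. The limit of 7 FPKM in replicate 1 applies here too, and some of these genes, such as Mrpl14, were below it.

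**Figure D5:**
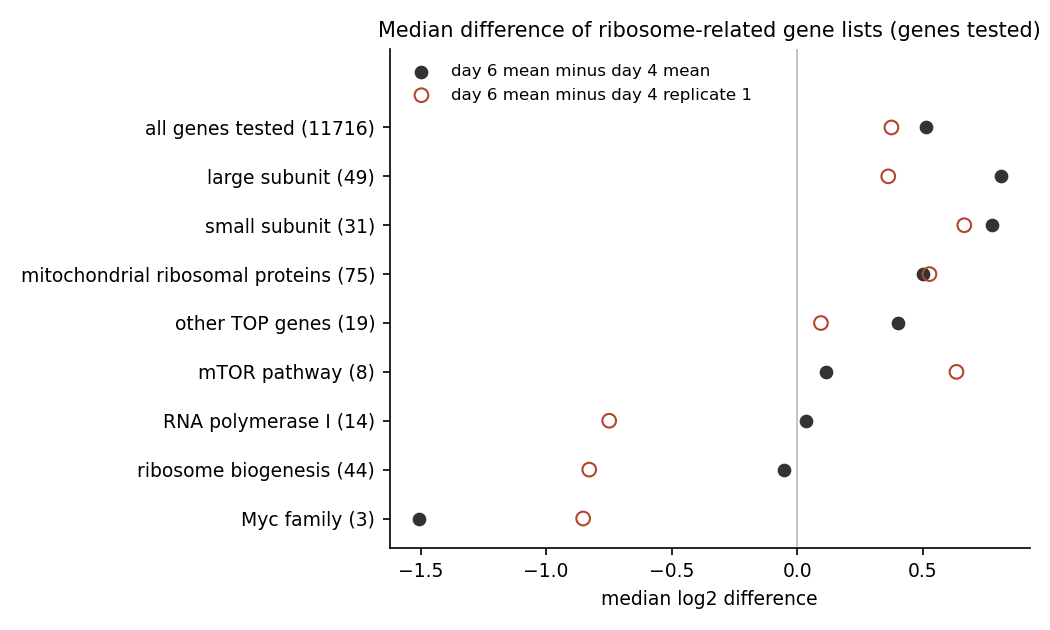
The median log2 difference of each list is shown with the number of genes tested in brackets, for the day 6 mean minus the day 4 mean (filled) and minus day 4 replicate 1 (open). Both medians are above 0 for the large and the small subunit and below 0 for the Myc family, while those of RNA polymerase I and ribosome biogenesis are near 0 with both day 4 libraries and at -0.75 and -0.83 with replicate 1 alone.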

How the data were processed

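Poly(A) RNA of 4 CJ9 libraries was sequenced from a stranded kit. Alignment is listed as TopHat2 2.0.11 after CASAVA, on build mm10, per the submitters' processing notes; not given in the sources used here are the quantifier, annotation release and strand setting. The authors deposited 1 table per library with 35656 transcript rows, FPKM with its bounds, and coverage; the deposited coverage signal was not used. FPKM holds no counts, so depth was estimated from interval width, taken as 2 Poisson SD on each side, over rows of at least 2500 bases at 5 FPKM or more.

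Rows were named by RefSeq and GENCODE M21 (95.5%), and FPKM was summed per symbol. Genes averaging 1 FPKM or more (11716) were tested as log2(FPKM + 1), which understates the change of low genes, with limma 3.58.1 in R 4.3.3 (two-sided, with a mean-variance trend and no replicate block; p-values adjusted by Benjamini-Hochberg, threshold 0.05). Near-identical genes came from BLAST+ 2.17.0 (95% identity over 70% of the query). Correction for GC content used a smooth fit with span 0.3, and GC content was known for 97.4% of genes tested. Simulated data of 11716 genes for the comparison of day 6 with day 4 had a log2 SD of 1 for every gene and library. In them the test recovered 0, 10, 22 and 76% of log2 changes of 1, 2, 3 and 4. In the data the median absolute log2 difference of members was 2.24 between the day 4 libraries and 0.18 between the day 6 libraries. The recovered shares thus do not give the power of this comparison. Members and lists were chosen with earlier results of these data known. Named members are the paralogue pairs, stalk and a set of single genes with known roles, the 4 highest and 4 lowest in mean FPKM, the 6 largest and 6 smallest day differences and the 4 largest gaps in each direction between the day 4 libraries; other lists are represented by their smallest p. Alternatives covered pseudocount, filter, scaling, GC content, length, row choice, trend, replicate block and each library left out. A few genes that this rule would name are not reported here.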

Additional observations from a re-analysis of the deposited data

How the results depend on the processing

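The count of 0 members called held for each alternative with all 4 libraries, and leaving out 1 library gave 0 to 61. The 32 members higher and 1 lower without overlap became 10 and 10 when libraries were centred on the median of the genes tested. Over all 11716 genes 4869 and 1347 became 2373 and 3098. With the GC correction 17 and 14 members remained (3306 and 3123 genes) and with the length correction 9 and 11 (2811 and 2725 genes). After quantile normalization there were 28 and 4 (2701 and 2928 genes), so the standing of the members against all genes also changed. The lower count was 4 with no filter and 2 with equal FPKM sums. With 1 library left out the higher count ran from 34 to 58 and the lower from 2 to 25, as fewer libraries can overlap. The median log2 difference of 0.79 became 0.16 with centring, 0.18 with the GC correction and 0.16 with the length correction. Over all genes 0.51 became -0.12, 0.03 and 0.0067 in the same order. After quantile normalization the medians were 0.75 for members and -0.02 for all genes. With 1 library left out the median over members ran from 0.48 to 0.80. The median gap between the day 4 libraries, -0.19, was -0.40 with equal FPKM sums, 0.26 with centring, -0.58 after quantile normalization, -0.38 with the GC correction and 0.0047 with the length correction, so its sign is not settled. The 3 paralogue pairs that separated the days were 5 with a pseudocount of 0.1 FPKM and 3 to 8 with 1 library left out. The difference in summed share, 0.434 percentage points, stayed within 1 SD under its 4 alternatives.

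The days share replicate numbers, which the labels do not link to a common culture, and deviations of same-numbered libraries had a correlation of -0.09 over 11716 genes. With the replicate block 0 members and 67 of all genes were called, and 0 members and 0 genes without it; the block left the counts of 32 and 1 and the median of 0.79 as they were. The cause of these shifts was not tested.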
